A study of Mus musculus with 8 samples.

Results

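Leukocytes attach to vessel walls, to matrix and to each other through a small set of surface proteins, and 7 genes of this kind are described here. *Selplg* encodes PSGL-1, the main ligand of P-selectin on leukocytes. *Spn* (CD43) and *Cd34* encode sialomucins, long and heavily glycosylated proteins that can both present selectin ligands and keep cells apart. *Cd44* encodes the receptor for hyaluronan. *Icam1*, *Icam2* and *Pecam1* (CD31) encode adhesion molecules of the immunoglobulin (Ig) superfamily. The genes were chosen by name, with earlier results of these data known. Every probe set that carries only one of these symbols in the platform annotation was taken, which gave 8 probe sets of 22626 tested and 7 genes of 12393. *Cd44* had 2 probe sets and each of the other genes had 1.

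The values came from splenic CD11b+Gr-1+ cells, a population of immature myeloid cells, sorted from 4 male *Tff2*-/- mice of 16 weeks on a C57BL/6 background, 14 days after 5 days of 3% DSS, a chemical that injures the colon. Each mouse gave cells to both arms, a control culture with GM-CSF (Csf2, 5 nM by the labels, where the paper's methods give another dose), a growth factor of myeloid cells, and a culture with the same GM-CSF plus 3 μM mouse recombinant Tff2 (rTFF2), both kept for 7 days. All 8 cultures therefore lack endogenous *Tff2*, come from a colitis model and had GM-CSF, and no uncultured or wild-type cells were analysed here. Each culture was hybridized to an Affymetrix mouse genome array, and values are the authors' log2 signals (GCRMA). Signals of different probe sets are not comparable with each other, so the level of each gene is compared only with itself. Changes on the log2 scale are also set against each other within mice. Sums of linear signal over marker lists, given below, are weighted to their brightest probe sets and do not measure the amount of a cell type.

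In the steps of leukocyte recruitment, selectins on the vessel wall bind sialylated and fucosylated sugars on PSGL-1 and let cells roll. Integrins of the β2 family then bind ICAM-1 and ICAM-2 and stop the cell, and PECAM-1 acts at the junctions through which cells leave the vessel. CD34 is best known on blood progenitors, endothelium and mast cells, CD43 and PSGL-1 on most leukocytes, and CD44 on nearly all of them. These roles are background and were not measured.

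With rTFF2, *Cd34* fell and *Icam2* and *Pecam1* rose, while *Selplg*, *Spn*, *Cd44* and *Icam1* did not pass the test. Differences were tested with limma with the mouse as a block, where the mouse was inferred from the number in the culture labels. Benjamini-Hochberg adjustment was over all probe sets, with a threshold of 0.05. So 3 of 8 probe sets passed, 1 lower and 2 higher, where 25.7% of all probe sets passed (13.7% higher and 12% lower). The median size of change was 0.29 on the log2 scale over the 8 probe sets and 0.15 over all probe sets. The 8 were all above the background level given below, as were 13620 of the 22626 probe sets. These comparisons were thus not matched for signal. After median centring of the arrays, 42.3% of all passing probe sets were higher, against 53.3% before, and *Cd34*, *Icam2* and *Pecam1* kept their calls. Every array was above the background level of 3.13, taken from 38 genes of other tissues, for all 8 probe sets, though *Pecam1* and *Spn* lay close to it. These are mixed cultures, in which fewer cells of a type and less RNA per cell cannot be told apart.

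**Figure D1:**
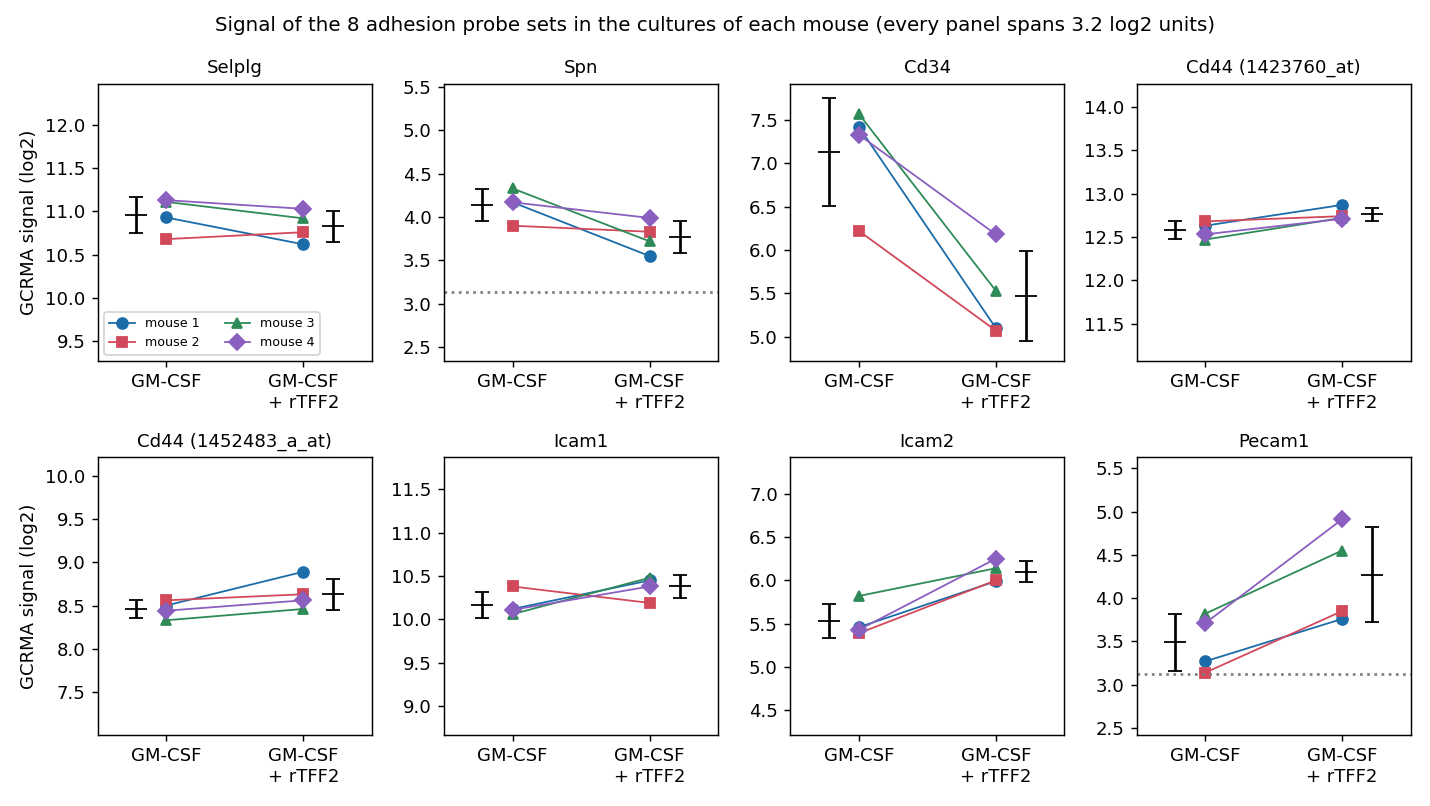
GCRMA signal (log2) of the 8 probe sets in the control (GM-CSF) and rTFF2 cultures, with a line joining the cultures of a mouse, black bars for mean and SD (n = 4 mice), and background (3.13) dotted where a panel reaches it. *Cd34* falls and *Icam2* and *Pecam1* rise in 4 of 4 mice, while the lines of *Selplg* and *Icam1* go both ways.

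*Selplg* was strongly expressed in all cultures and differed little between them. Its log2 signal in mice 1 to 4 was 10.93, 10.68, 11.11 and 11.13 with GM-CSF alone and 10.62, 10.76, 10.92 and 11.03 with rTFF2. The groups overlapped, and the culture with rTFF2 was lower in 3 mice and higher in mouse 2. The log2 fold change was -0.13 (standard error 0.08, 95% interval -0.33 to 0.07, adjusted p = 0.31), an interval that leaves out a change by 2-fold in either direction.

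*Spn*, which encodes CD43, had a low signal of 4.17, 3.90, 4.33 and 4.17 in the control cultures of mice 1 to 4 and of 3.55, 3.83, 3.72 and 3.99 in the rTFF2 cultures. Every rTFF2 culture was below its partner, by 0.61 in mice 1 and 3, by 0.18 in mouse 4 and by 0.07 in mouse 2, yet the groups overlapped. The log2 fold change was -0.37 (standard error 0.11, 95% interval -0.63 to -0.10), with an adjusted p of 0.052, just over the threshold. Over 12 alternatives of the processing the adjusted p ranged from 0.027 to 0.21 and was under 0.05 in 6, among them median centring (-0.42, adjusted p = 0.027) and the fit without mouse 2 (-0.47, adjusted p = 0.031). It was over 0.05 in the other 6, among them the fits without mouse 1 or mouse 3 (-0.29, adjusted p = 0.18 for each) and an offset of 32 on the linear scale, which damps dim signals (-0.12, adjusted p = 0.13).

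*Cd34* had the largest change of the 7 genes, a 3.17-fold decrease. Its signal was 7.42, 6.22, 7.57 and 7.33 with GM-CSF alone and 5.10, 5.07, 5.53 and 6.18 with rTFF2, in mice 1 to 4. The groups did not overlap but came within 0.04 of each other, at the control culture of mouse 2, which lay over 1 log2 unit below the other controls, and the rTFF2 culture of mouse 4. Groups lay apart in this way in 25.5% of all probe sets. Within each mouse the fall was larger than that gap, at 2.32, 1.15, 2.04 and 1.15 on the log2 scale. The log2 fold change was -1.67 (standard error 0.21, 95% interval -2.16 to -1.17, adjusted p = 0.0018), and it ranked at place 277 of 22626 by size. By size alone 3.59% of all probe sets changed over 2-fold, and *Cd34* was the only one of the 8 to do so.

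The region before the RefSeq start site of *Cd34*, the gene with the largest change, is shown beside that of *Icam1*, whose promoter is known for an NF-kB element. RefSeq sequences of GRCm38.p6 were matched for 4 of the 7 genes (*Spn*, *Cd34*, *Cd44* and *Icam1*). The 250 bases before the start were searched on both strands for 7 motifs, and matches are in capitals. The general promoter elements were the TATA box, spelled TATAAA, and the GC box bound by Sp1, spelled GGGCGG. The motifs of blood cell factors were GATAAG for the GATA family, the letters TGTGGT for the RUNX family, the core CCGGAA for the Ets family as a whole and the purine-rich GAGGAA for its member PU.1. For NF-kB only the exact letters GGAAATTCC were searched, and no other form of its site. *Icam1* was picked for its known NF-kB element, so a match there is not independent of that choice. None of these motifs overlaps another in the 2 windows printed, which lie on the plus strand at chr1:194938571-194938820 and chr9:21015690-21015939.
Cd34: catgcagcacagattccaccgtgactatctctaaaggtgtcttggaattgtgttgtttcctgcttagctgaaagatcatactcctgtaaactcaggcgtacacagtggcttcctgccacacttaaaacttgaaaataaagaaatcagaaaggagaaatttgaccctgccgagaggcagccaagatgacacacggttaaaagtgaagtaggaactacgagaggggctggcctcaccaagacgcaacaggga
Icam1: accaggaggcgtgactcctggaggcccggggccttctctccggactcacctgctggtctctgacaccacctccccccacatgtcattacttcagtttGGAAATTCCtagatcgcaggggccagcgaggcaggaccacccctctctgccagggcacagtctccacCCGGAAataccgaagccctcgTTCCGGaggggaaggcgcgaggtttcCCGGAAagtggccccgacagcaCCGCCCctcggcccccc
The *Cd34* window held none of the 7 motifs in these spellings, with a GC content of 46.4%. The *Icam1* window, with a GC content of 65.2%, held the NF-kB letters 153 bases before the start site. It also held the Ets letters CCGGAA at 86, 65 and 39 bases and a GC box at 17 bases. Of all 32851 windows of this length, 0.286% held the NF-kB letters, 12% the letters CCGGAA, 32.7% the GC box and 12.4% the TATA box. The GATA core was in 6.55%, the RUNX core in 14% and the PU.1 core in 23.3%. Of the windows not printed, that of *Cd44* held the GATA core at 232 bases and the PU.1 core at 243 and 220 bases, and that of *Spn* held no match. A match is a description of these letters, and binding was not measured.

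*Cd44* gave nearly the same small difference on both of its probe sets. On 1423760_at, the brighter, the signal was 12.63, 12.68, 12.47 and 12.53 with GM-CSF alone and 12.87, 12.74, 12.72 and 12.71 with rTFF2. On this probe set the groups lay apart by 0.03, and the log2 fold change was 0.18 (standard error 0.07, 95% interval 0.01 to 0.34, adjusted p = 0.11). On 1452483_a_at, whose suffix marks a probe set shared by several transcripts of a gene, it was 8.50, 8.56, 8.33 and 8.44 against 8.89, 8.63, 8.46 and 8.56. Here the groups overlapped, and the log2 fold change was 0.18 as well (standard error 0.08, 95% interval -0.01 to 0.36, adjusted p = 0.16). The rTFF2 culture was higher in 4 of 4 mice on both probe sets, by as little as 0.06 in mouse 2, and 45% of all probe sets moved the same way in all mice. The brighter probe set passed with an offset of 32 on the linear scale (adjusted p = 0.048) and with a trended and robust prior (0.025), the other under none of the 12 alternatives.

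*Icam1* went up in 3 mice and down in mouse 2. Its signal was 10.12, 10.38, 10.06 and 10.11 with GM-CSF alone and 10.45, 10.19, 10.48 and 10.38 with rTFF2, so that the control culture of mouse 2 stood as high as the rTFF2 culture of mouse 4. The log2 fold change was 0.21 (standard error 0.11, 95% interval -0.05 to 0.46, adjusted p = 0.22). It passed in 1 of 12 alternatives, the fit without mouse 2 (0.34, adjusted p = 0.031). Without mouse 1, 3 or 4 it was 0.16, 0.13 and 0.18 (adjusted p = 0.47, 0.51 and 0.41), and with the *Actb* covariate described further on it was 0.60 (adjusted p = 0.094).

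*Icam2* rose in every mouse. The signal was 5.46, 5.39, 5.82 and 5.43 with GM-CSF alone and 5.99, 6.00, 6.14 and 6.25 with rTFF2, and the groups lay apart by 0.17. The rise was 1.48-fold, a log2 fold change of 0.57 (standard error 0.09, 95% interval 0.35 to 0.79, adjusted p = 0.0050). It was smallest in mouse 3 (0.33), whose control culture was the highest, and largest in mouse 4 (0.82).

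*Pecam1* rose 1.72-fold from a signal close to background. Mice 1 to 4 had 3.27, 3.14, 3.82 and 3.71 with GM-CSF alone and 3.76, 3.85, 4.55 and 4.91 with rTFF2. The groups overlapped, because the rTFF2 cultures of mice 1 and 2 stood no higher than the control culture of mouse 3 or just above it, while within mice the rise was 0.49, 0.71, 0.74 and 1.21. The log2 fold change was 0.79 (standard error 0.12, 95% interval 0.51 to 1.06, adjusted p = 0.0036). Without the replicate block the adjusted p was 0.064, and with an offset of 32, which damps dim signals, the log2 fold change was 0.26 (adjusted p = 0.064).

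**Figure D2:**
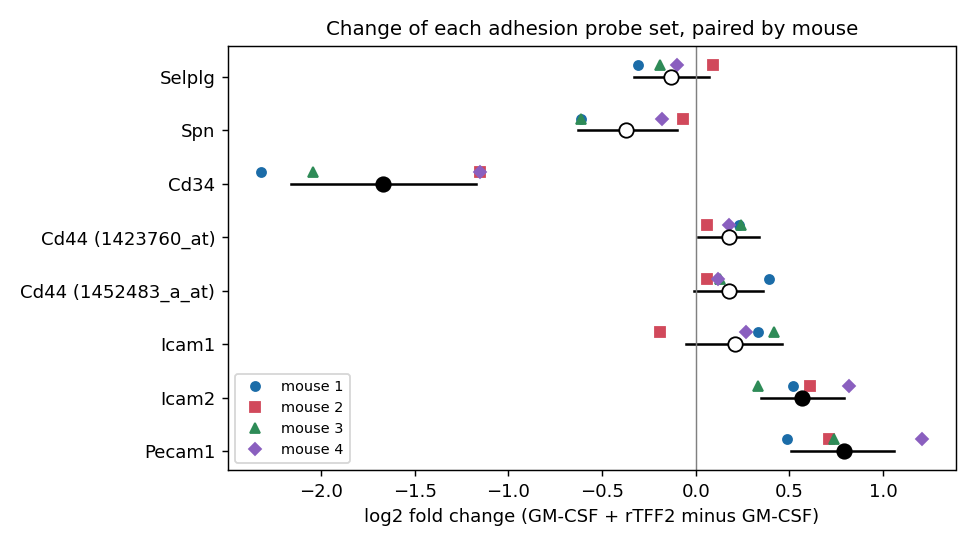
Log2 fold change of the 8 probe sets, with large circles for the estimate from limma with the mouse as a block (filled where adjusted p was under 0.05), lines for the 95% interval before adjustment for multiple tests, and small symbols for each mouse. *Cd34* at -1.67 stands apart on the left, *Icam2* (0.57) and *Pecam1* (0.79) are filled on the right, and mouse 2 lies nearest to zero or beyond it for *Selplg*, *Spn*, *Cd44* and *Icam1*.

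The changes of related genes were set against each other within mice. The change of *Icam2* minus that of *Icam1* was 0.19, 0.81, -0.09 and 0.55 in mice 1 to 4, a mean of 0.36 ± 0.39 (SD, n = 4), and a two-sided exact sign-flip test gave p = 0.25. The change of *Cd34* minus that of *Spn*, also a sialomucin gene, was -1.71, -1.08, -1.44 and -0.97, a mean of -1.30 ± 0.34 (SD, n = 4, exact p = 0.125). For *Pecam1* minus *Icam2* the mean was 0.22 ± 0.22 (SD, n = 4, exact p = 0.25). After adjustment over these 3 comparisons each had p = 0.25, and 4 mice cannot give a p below 0.125 in this exact test.

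The control culture of mouse 2 was the lowest or the highest of the 4 controls on all 8 probe sets, lowest for *Selplg*, *Spn*, *Cd34*, *Icam2* and *Pecam1* and highest for *Icam1* and both of *Cd44*. It held such a place in 67.7% of the 13620 probe sets above background, the highest share among the control cultures, which otherwise held one in 34.1% to 49.4%. This culture also had the highest *Mpo*, the myeloperoxidase of primary granules (8.95, against 3.60 to 6.36), and *Kit*, the stem cell factor receptor (5.73, against 4.12 to 4.58), of the controls. Other markers, read below, did not all go this way. *Hdc* was also highest here (7.30, against 6.44 to 7.24). *Gata2* (4.32, against 5.47 to 5.83), *Pf4* (10.88, against 11.94 to 12.13) and *Ppbp* (5.71, against 7.45 to 7.57) were lowest. *Cpa3* (4.88) and *Mcpt8* (5.63) lay below the control culture of mouse 1 (7.18 and 6.90). The part of these differences in the values of the 7 genes was not tested.

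As *Cd34*, *Icam2* and *Pecam1* are also expressed by endothelium, platelets, progenitors or mast cells, markers of such cells were read on the same arrays. Of 12 endothelial markers 2 were above background (*Vwf* and *Egfl7*), and *Cdh5*, *Kdr*, *Tek* and *Tie1* lay below it in both groups. In this list 1 gene passed as higher and 1 as lower. The lower one was *Cdh5* (log2 fold change -0.30, adjusted p = 0.018, and 0.0097 without the replicate block), lower in 4 of 4 mice. *Vwf*, which encodes von Willebrand factor, rose by 0.35 (adjusted p = 0.034, higher in 4 of 4 mice), though without the replicate block its adjusted p was 0.21, and *Egfl7* was at 0.17 (adjusted p = 0.12, higher in 4 of 4 mice). The summed linear signal of that list was 127 to 160 in the control and 142 to 206 in the rTFF2 cultures. Of 6 platelet and megakaryocyte markers 3 were above background and rose, *Pf4* (1.57), *Ppbp* (2.76) and *Itga2b* (0.99 on the log2 scale), and *Gp9*, *Gp5* and *Gp1bb* were below background. The sum was 1969 to 4685 in the control and 10428 to 11955 in the rTFF2 cultures. Of 11 mast cell, basophil and progenitor markers 7 were above background and 8 rose, with a sum of 211 to 515 against 4265 to 7834. Among the 8, *Gata1* lay below background in both groups (1.91 and 2.33). Of this list 72.7% passed, of the platelet list 50%, of the endothelial list 16.7% and of the T cell list 33.3%. Over all genes 27.7% passed, 14.5% higher and 13.3% lower. The largest rise was that of *Mcpt8* (6.18), followed by *Cpa3* (5.77), *Fcer1a* (4.31) and *Ms4a2* (2.44), the last 2 from below background. *Kit* rose by 0.93, though without the replicate block its adjusted p was 0.074. *Tpsb2*, *Cma1* and *Flt3* lay below background. T cell markers above background were 3 of 9, with *Cd3e*, *Cd3d* and *Cd247* below, and B cell markers 0 of 6. Of those 3, *Lat* rose by 0.39 (adjusted p = 0.010), *Cd8a* fell by 0.33 to below background (adjusted p = 0.047), and *Thy1* went from 4.55, 6.81, 3.48 and 2.76 to 5.49, 6.63, 6.84 and 7.20, higher in 3 of 4 mice (log2 fold change 2.14, adjusted p = 0.064). *Cd5*, below background in both groups, also passed as lower (log2 fold change -0.36, adjusted p = 0.017). The sums of the T and B cell lists were 62 to 182 and 29 to 31 in the control and 104 to 208 and 29 to 31 in the rTFF2 cultures. All 7 measured myeloid markers, such as *Itgam*, *Csf1r* and *Adgre1*, were above background in both groups, with a sum of 44257 to 53064 against 56145 to 61150. The part of the endothelial, platelet, mast cell, basophil, progenitor and T cell markers in the changes of *Cd34*, *Icam2* and *Pecam1* was not tested.

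The excess of 3′ over 5′ signal for *Actb*, a measure of RNA degradation, was 0.53 ± 0.09 (SD, n = 4) in the control and 0.70 ± 0.05 (SD, n = 4) in the rTFF2 cultures. With it as a covariate beside the block, *Cd34* was at -1.94 (adjusted p = 0.057), *Icam2* at 0.58 (adjusted p = 0.17) and *Pecam1* at 1.02 (adjusted p = 0.059), so that 0 of 8 probe sets passed in limma, while 5 had an unadjusted p under 0.05. Since the measure moved with the groups, its part in these results cannot be told apart from that of rTFF2. Of all probe sets 1588 passed in that fit, against 5811. The share of all probe sets with an unadjusted p under 0.05 in that fit was not counted. The 5 therefore have no background to be read against.

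The other genes of adhesion were read from 7 lists, with 98 of 106 listed genes measured, each counted by its brightest probe set. Where the probe sets of a named gene differed in their call, the others are given too. For *St3gal3*, *St3gal4* and *C1galt1* only the brightest is given. Of the 98 genes 28 rose and 12 fell, or 40.8%, where 27.7% of all genes passed (14.5% higher and 13.3% lower). The lists were chosen with earlier results of these data known, so these shares are a description and no test of adhesion genes. Their median log2 fold change was 0.05, against -0.03 over all genes.

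Selectins and further sialomucins changed little. Of 9 measured, 2 rose and none fell. *Selp*, which encodes the P-selectin that binds PSGL-1, rose by 0.32 near background, from 3.23 to 3.54 (adjusted p = 0.029). *Glg1*, which encodes an E-selectin ligand, rose by 0.26 (adjusted p = 0.037). Other probe sets of these genes did not pass, at 0.21 for *Selp* and at 0.18 and 0.08 for *Glg1*. Neither passed without the replicate block, or without mouse 2, 3 or 4, and 1 passed without mouse 1. The sialomucin genes *Cd164* (0.11) and *Cd24a* (-0.10) were bright in both groups and did not pass on their brightest probe sets, while another of *Cd24a* fell by 0.32 (adjusted p = 0.021), and *Sele*, *Podxl*, *Emcn*, *Glycam1* and *Madcam1* lay below background.

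Enzymes that build selectin ligands on PSGL-1 went both ways, with 6 of 22 higher and 4 lower. *St3gal6*, a sialyltransferase of selectin ligands, fell from 4.51, 4.50, 4.94 and 4.82 to 3.76, 3.62, 4.18 and 4.05 in mice 1 to 4 (log2 fold change -0.79, adjusted p = 4.8e-04). Its brighter relative *St3gal4* rose from 7.45 to 7.82 (log2 fold change 0.37, adjusted p = 0.014), while *St3gal3* fell (-0.35, adjusted p = 0.029) but did not pass without the replicate block. *Tpst1*, a tyrosine sulfotransferase of the kind that modifies PSGL-1, fell by 0.76 (adjusted p = 0.0058), while its relative *Tpst2* rose by 0.49 (adjusted p = 0.0066). *Slc35a1*, the transporter of activated sialic acid into the Golgi, rose by 0.54 (adjusted p = 0.0041) and the galactosyltransferase gene *B4galt1* by 0.44 (adjusted p = 0.0044). *Gcnt1*, the core 2 enzyme needed for P-selectin binding, fell by 0.26 (adjusted p = 0.037), and the fucosyltransferase genes *Fut4* and *Fut7* lay at or below background in both groups. *C1galt1*, of the same list, rose by 0.57 (adjusted p = 0.020, and 0.084 without the replicate block). The number past the threshold in this list was 6 without mouse 1 or 3 and 5 without mouse 4.

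Of 24 further Ig-type adhesion genes 5 rose and 4 fell. *L1cam*, a homophilic adhesion molecule, fell from 5.72, 6.29, 6.01 and 5.79 to 4.44, 4.55, 4.18 and 4.09 (log2 fold change -1.64, adjusted p = 1.9e-04), while its other probe set, below background, was at -0.06 (adjusted p = 0.58). *Cd244a*, a receptor of NK and myeloid cells, fell by 2.03 (adjusted p = 0.0014), and *Cd48*, which encodes its ligand, by 0.46 (adjusted p = 0.0047). *Ncam1* rose from background in the control cultures (log2 fold change 0.59, at least 1.49-fold, adjusted p = 0.0032) and passed on 2 of its 6 probe sets. Values for the pair *Cd47* and *Sirpa*, a ligand and its inhibitory receptor, were 0.44 and 0.40, and both rose (adjusted p = 0.0058 and 0.011). The relatives of the ICAM genes, *Icam4* and *Icam5*, lay below background, and *Vcam1* (-0.12, adjusted p = 0.41) did not pass.

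The integrin partners of ICAM-1 and ICAM-2 moved unequally. *Itgal*, whose product pairs with the β2 chain to form LFA-1, had a low signal that rose from 3.57, 3.63, 3.70 and 3.69 to 3.87, 3.95, 3.83 and 4.16 (log2 fold change 0.30, adjusted p = 0.029). It did not pass without mouse 1, 2 or 4 (adjusted p = 0.094, 0.074 and 0.11). *Itgam*, which encodes CD11b, rose by 0.37 (adjusted p = 0.010), and *Itgax*, which encodes CD11c, fell by 1.19 (adjusted p = 7.2e-04). The common β2 chain *Itgb2* was at 0.19 and did not pass (adjusted p = 0.10).

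Of 10 genes of cytoskeletal linkers and of signalling from these receptors 1 rose and 1 fell. *Syk*, a kinase downstream of PSGL-1 and CD44 ligation and of many other receptors, rose by 0.71 (adjusted p = 0.0011). *Ezr*, which encodes ezrin, a linker of CD43, CD44 and ICAMs to actin, fell by 0.26 (adjusted p = 0.031), and did not pass without any of the mice. Its other probe set was at -0.16 (adjusted p = 0.20). For *Rdx*, the gene of the related linker radixin, the brightest probe set was at -0.25 (adjusted p = 0.11), another fell by 0.33 in 4 of 4 mice (adjusted p = 0.019) and the last was at 0.09 (adjusted p = 0.41). *Msn*, which encodes moesin, did not pass on either probe set (0.07 and -0.01), nor did the brightest probe sets of *Ptpn6* (0.01) and *Ptpn11* (0.15), whose phosphatases bind the inhibitory motifs of PECAM-1.

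Genes of sheddases, which can cut adhesion molecules off the surface, and of intramembrane proteases were higher or did not pass. Of 12 measured, 7 were higher and none lower. *Mmp9* rose from 10.72, 9.57, 10.77 and 10.80 to 12.34, 10.97, 12.39 and 12.34 in mice 1 to 4, so mouse 2 was lowest in both groups, and the log2 fold change was 1.54 (adjusted p = 7.7e-05). *Mmp14*, a membrane protease that cuts CD44, rose by 1.30 (adjusted p = 4.7e-04). The neutrophil elastase gene *Elane* rose by 3.33 (adjusted p = 0.0027) and *Psen2*, a subunit of γ-secretase, by 0.76 (adjusted p = 0.0073). *Adam17*, the sheddase of many surface proteins, rose by 0.40 (adjusted p = 0.0082), while *Adam10*, which also cuts CD44, did not pass on its brightest probe set (0.15, adjusted p = 0.15) and rose on the other two (0.38 and 0.37, adjusted p = 0.034 and 0.041). For *Psen2* the other probe set, below background, was at -0.28 (adjusted p = 0.090).

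Of 17 genes of hyaluronan and of CD44 partners 5 rose and 2 fell. *Stab1*, a scavenger receptor of macrophages, rose from 5.31, 5.56, 5.12 and 5.33 to 8.04, 8.38, 8.37 and 8.34 (log2 fold change 2.95, adjusted p = 2.9e-05). *Vcan*, a matrix proteoglycan that binds hyaluronan, rose by 2.35 (adjusted p = 4e-04) and *Lgals9*, a lectin that can bind CD44, by 0.75 (adjusted p = 6.7e-04). *Cd74*, the invariant chain and a partner of CD44 in signalling by MIF, fell by 1.20 (adjusted p = 0.0011). The hyaluronan synthase genes *Has1*, *Has2* and *Has3* lay below background, as did *Lyve1* and the splicing regulators of CD44 variants, *Esrp1* and *Esrp2*.

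**Figure D3:**
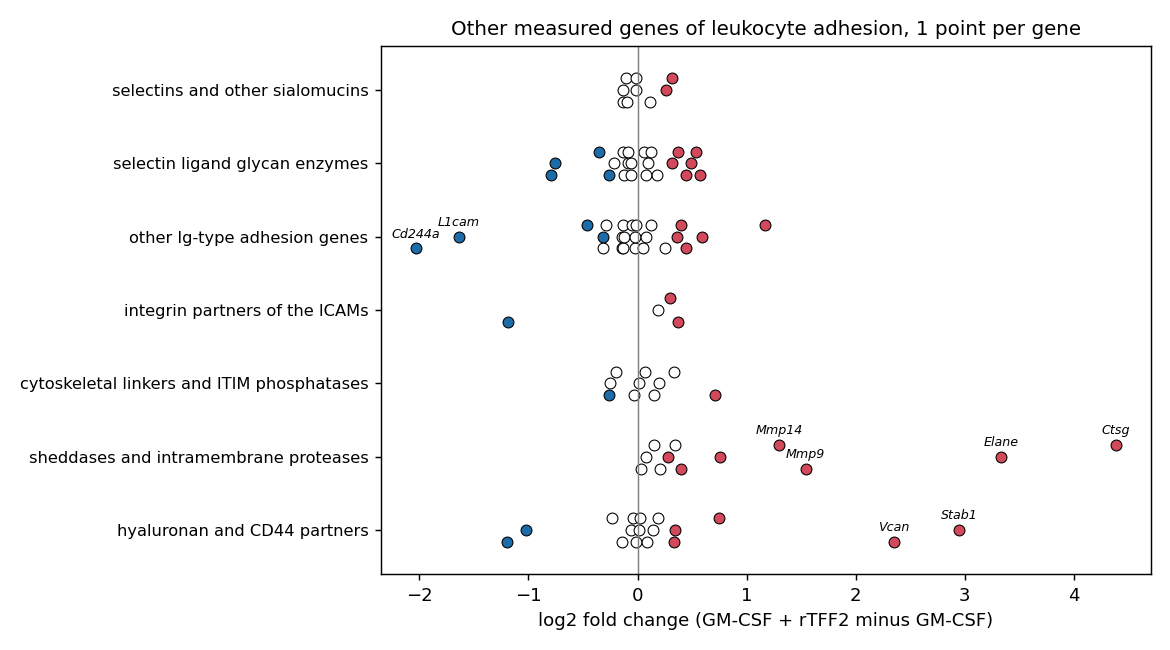
Log2 fold change with rTFF2 for every gene measured in 7 lists of leukocyte adhesion, 1 point per gene, red where it rose and blue where it fell with adjusted p under 0.05 and white otherwise. Protease points reach 4.38 (*Ctsg*), *Cd244a* lies at -2.03, and most points of the selectin list lie near 0.

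For each of the 7 genes, the 3 genes whose signals followed it most closely over the 8 arrays were sought by Pearson correlation among 7747 genes above background. The arrays share mice and fall into the groups compared, so these values describe a likeness of pattern. For *Cd34* they were *Cyp4f16* (r = 0.99), *Ing1* (0.987) and *Mef2c* (0.985), with log2 fold changes of -0.56, -0.21 and -0.87. For *Icam2* they were *Nudt3* (r = 0.994), *Map7d1* (0.984) and *Rpia* (0.983), and for *Pecam1* they were *Il18rap* (0.98), *Abtb1* (0.975) and *Ctdspl* (0.972). For *Spn* they were *Nup107* (0.982), *Mkks* (0.979) and *Txndc5* (0.976), and for *Selplg*, *Rpl41* (0.977), *Klrd1* (0.976) and *Suclg2* (0.976). For *Cd44* they were *Osgin1* (0.987), *Pisd-ps3* (0.981) and *Cyb5r1* (0.974), and for *Icam1*, *Sos2* (0.972), *Chmp1b* (0.953) and *D16Ertd472e* (0.95).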

How the data were processed

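RNA of 8 cultures, 4 with GM-CSF and 4 with GM-CSF plus rTFF2, was measured on Affymetrix arrays. The authors deposited log2 signals from GCRMA (version 2.30.0, with affy 1.36.0, by the submitters' notes). GCRMA corrects background by probe base content, so folds of dim probe sets depend on it, and it was not rerun. Values were not renormalized, and 64 control probe sets of 22690 were left out. Array medians lay between 4.09 and 4.20, and no 2 arrays correlated above 0.998. Precision is limited by the small number of arrays.

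Of the 22626 probe sets, 20380 carry 1 gene symbol in the platform annotation, 691 several and 1555 none, and 0 symbols were updated through RefSeq identifiers. A member was any probe set with only its symbol, and a gene of a list was represented by its brightest probe set. Background was set at the 95th percentile of the signals of 38 genes specific to other tissues.

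Tests used R 4.3.3 and limma 3.58.1 (lmFit and eBayes) with the mouse as a block. The labels number the cultures of each arm 1 to 4, and the methods state that the sorted cells were divided between the arms. Cultures with the same number were taken to come from the same mouse, which is an inference. The methods name limma without pairing. The 2 cultures of a mouse deviated from their group means with correlations, for mice 1 to 4, of 0.05, 0.53, 0.31 and 0.39. Between cultures of different mice the correlations ran from -0.54 to 0.34. The control of mouse 4 with the rTFF2 culture of mouse 3 (0.34), and the reverse pair (0.33), exceeded the value of mouse 3. The control of mouse 1 with the rTFF2 culture of mouse 2 (0.12) exceeded that of mouse 1. These values alone therefore do not establish the pairing. Alternatives were the fit without the block, removal of dim probe sets, a further quantile normalization, centring on array medians, an offset of 32, array weights, a prior that was trended and robust, omission of each mouse, the *Actb* covariate, and, for counts, a threshold of 0.01 and gene values averaged over probe sets.

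The genes and lists were chosen with earlier results of these data known. Every probe set of the 7 genes is described, as are the called genes of a list with the lowest adjusted p, to a limit of 4. Other list genes are named as known partners or examples, a choice made with values in view.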

Additional observations from a re-analysis of the deposited data

How the results depend on the processing

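Without the replicate block, 2 of the 8 probe sets of the 7 genes passed (*Cd34* and *Icam2*), as did 35 genes of the adhesion lists and 4927 probe sets in all, and it changed no other call among the 7 genes. No direction reversed under any alternative for the 8 probe sets. With a trended and robust prior 5 of the 8 passed. With the *Actb* covariate 0 passed, with 15 adhesion genes and 1588 probe sets in all. In limma 5 of the 8 had an unadjusted p under 0.05 in that fit, a cut not counted over all probe sets. Leaving out each mouse in turn gave 3 to 5 of the 8, 27 to 31 adhesion genes and 3609 to 5006 probe sets. At a threshold of 0.01, 22 adhesion genes and 2906 probe sets passed. The 8 probe sets otherwise gave 3 or 4 calls. *Cd34* ranged from -1.94 to -1.18 and *Icam2* from 0.36 to 0.65 on the log2 scale, and each lost its call with the covariate only. *Pecam1* ranged from 0.26 to 1.02 and lost its call in 3 of 12 alternatives. *Selplg* passed in none. Of 23 list genes named by the rule, 12 did not pass with the covariate, and 0 to 4 in each of the others. The number of lower list calls among hyaluronan and CD44 partners was 0 with the covariate. The cause of these differences was not tested. Signals near background limit *Pecam1*, *Spn*, *Selp* and *Itgal*.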
